A study of Homo sapiens with 6 samples.

Results

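Protocadherins are the largest group of the cadherin superfamily of cell adhesion proteins. The clustered genes lie in 3 neighbouring arrays, alpha, beta and gamma, on chromosome 5. Each alpha or gamma gene has its own promoter and variable first exon, which encodes the extracellular, transmembrane and first cytoplasmic part, and is spliced to constant exons shared by its array, whereas the beta genes are single exons with no constant part. Neurons choose a few promoters of the arrays, with the architectural factor CTCF and cohesin bound at them, and the resulting proteins let a neuron tell its own branches from those of others. The non-clustered delta protocadherins are ordinary single genes that act in cell sorting, migration and axon growth, and mutations of PCDH19 cause an epilepsy of early childhood.

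Protocadherin genes were taken by symbol from the deposited gene table: 71 symbols matched the family name, of which 2 pseudogenes, 3 antisense RNAs and the Y-linked member were left out. The remaining 65 genes were 15 alpha, 16 beta, 22 gamma, 4 delta-1, 5 delta-2 and 3 other non-clustered genes, out of 57992 gene identifiers. The RNA came from HEK293T cells, a line of human embryonic kidney cells that grows fast and carries the SV40 large T antigen. Cells were infected with a pLKO.1 lentivirus that carried either an shRNA with a nonspecific sequence (sh-control, 3 libraries) or 1 shRNA against RREB1 (sh-RREB1, 3 libraries), and stable lines were selected in DMEM with serum. RREB1 is a zinc finger transcription factor of the RAS pathway, and its loss was the question of the study. Total RNA was sequenced with a strand-specific kit, and the deposited values are counts of reads per gene. The sources used here do not say whether the 3 libraries of a group came from separate cultures or separate infections, so the p-values measure only the spread between these libraries. In such bulk RNA, fewer cells that use a gene and less RNA per cell cannot be told apart.

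Reads on genes numbered from 12257054 to 33044061 per library. In sh-RREB1 replicate 3, the shallowest, 52.1% of aligned reads mapped to several places, against 3.66% to 7.63% in the other libraries. The chi-square of counts over genes (per degree of freedom) was 48.5 and 60.6 between sh-control replicate 1 and the other sh-control libraries, 4.70 between those, and 14.1 to 54.4 between the sh-RREB1 libraries. In CPM, which are read counts scaled to the size of each library, RREB1 itself measured 27.1, 25.1 and 26.5 with sh-control against 23.7, 24.6 and 23.1 with sh-RREB1, a log2 fold change of -0.14 (95% interval -0.43 to 0.15; adjusted p = 0.489, edgeR quasi-likelihood test with Benjamini-Hochberg adjustment). Every sh-RREB1 library lay below every sh-control library, but the difference did not pass the test. With each library's trend on GC content and transcript length removed, the value was -0.36 (adjusted p = 0.0539, edgeR). The paper reports a larger reduction of RREB1 mRNA, and a reduction of its protein, in cells with this shRNA, measured apart from these counts. The reason for this difference was not tested. Markers of HEK293 cells, by number mostly embryonic kidney and neural filament genes, summed to 513 to 569 CPM with sh-control against 837 to 943 with sh-RREB1. Neuron markers summed to 39.5 to 50.1 and 37.4 to 46.8. VIM made up most of the HEK293 sum (329 to 359 against 529 to 615 CPM), and all 10 of these markers tested had a positive log2 fold change. The kidney marker PAX2 measured only 0.0933 to 0.475 CPM over all libraries, and PAX8 had 5 reads in all and was not tested. Most of the neuron sum was SYT1 (35.8 to 46.3 CPM over all libraries), whereas STMN2 fell from 3.95, 3.23 and 3.11 CPM to 0.201, 0.115 and 0.158 CPM (log2 fold change -4.40; adjusted p = 0.000611, edgeR), and 3 of the 5 neuron markers tested had a negative log2 fold change. Summed fibroblast markers were 0.954 to 1.65 and 1.42 to 8.86 CPM. The 8.86 CPM was in sh-RREB1 replicate 2, where COL1A2 measured 3.93 CPM, against 0 and 0.0791 CPM in sh-RREB1 replicates 1 and 3. Glia markers summed to 4.01 to 4.55 and 3.25 to 4.02 CPM with SOX10 at 0, and blood cell markers to 0.694 to 1.24 and 0.554 to 1.37 CPM with CD3E and HBB at 0. The part of these shifts in any result below was not tested.

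Most promoters of the clustered genes carry a short stretch known as the conserved sequence element. Its letters were looked for here because it is shared by the arrays and varies between them. RefSeq promoter windows (GRCh38.p14, 250 bases before to 50 after the start) were found for 57 of the 65 members, 47 of them clustered. The core letters GNCGCT, searched on both strands, occurred in 45 of the 47 clustered promoters (95.7%), in 5 of 10 non-clustered ones and in 44% of all 35116 promoters. These letters, and the longer forms that contain them, were chosen after the sequences had been seen. A match of the core letters alone does not show that the element is present. The windows below hold such a match on the gene's strand, in capitals, for members whose levels are given further on. Some genes have further matches that are not shown.
PCDHA10 (chr5:140855845-140855868): gccaccggatGTCGCTgtcgtcca
PCDHA11 (chr5:140868887-140868910): ggcgcaaggtGTCGCTctttactt
PCDHAC1 (chr5:140926224-140926247): agaaggtgtgGTCGCTcacgttca
PCDHB2 (chr5:141094548-141094571): gacgcggggtGGCGCTgcagcctt
PCDHB14 (chr5:141223267-141223290): gacacatggtGGCGCTacaggata
PCDHB15 (chr5:141245318-141245341): aacgcatggtGGCGCTgcaggcta
PCDHGA11 (chr5:141420976-141420999): ggctctaggcGCCGCTgctcacca
PCDHGC3 (chr5:141475884-141475907): gactctgtgtGCCGCTgtcggcca
PCDHGC4 (chr5:141484956-141484979): gagcccgggaGCCGCTgtctgcca

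The letters around the core differed by array. ATGTCGCT occurred in 9 of 13 alpha promoters and in 0.234% of all promoters. GTGGCGCT occurred in 13 of 14 beta promoters and in 1.15% of all. GNCGCTGT, which overlaps the alpha form in some promoters, occurred in 17 of 20 gamma promoters, in 5 of 13 alpha promoters and in 4.35% of all. On the gene's own strand the core lay within 100 bases before the start in 42 of 47 clustered genes, at a median position of -57. Over the 65 members, these matches describe the promoter letters, and neither binding nor methylation was measured here.

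**Figure D1:**
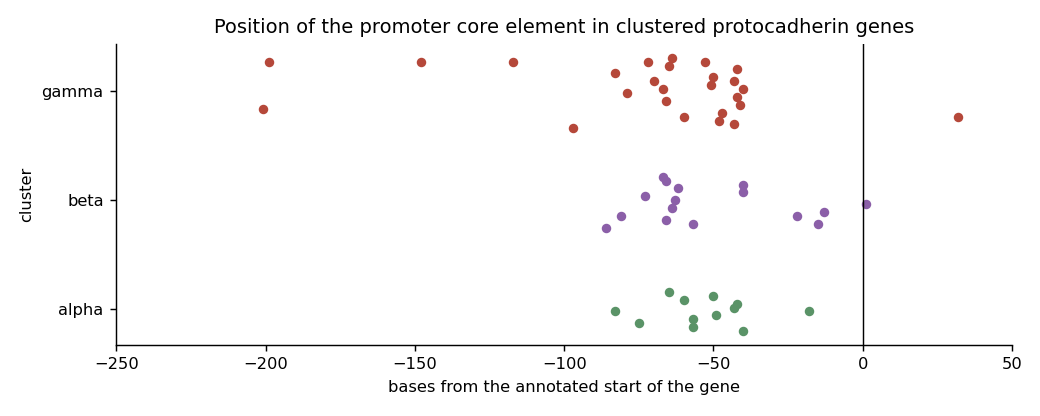
Position of the promoter core on the gene's strand, in bases from the annotated start (x axis), for each clustered gene by array (y axis; each height is 1 gene, and some genes have several matches). Most points of all 3 arrays lie in the 100 bases before the start, and PCDHGC3 has 5 matches.

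In HEK293T cells a few non-clustered genes took almost all reads counted on protocadherin genes. Reads on the constant exons shared by alpha or by gamma genes were counted to none, so the shares below leave them out. PCDH9, PCDH10, PCDH7, PCDH18, PCDH17 and PCDH19 took 97.1% of the 69740 reads counted on members over the 6 libraries, and PCDH9 alone took 52.8%. The 53 clustered genes held 1737 reads together, with 228 on alpha, 275 on beta and 1234 on gamma genes. A mean of at least 1 CPM was reached by 10 members, of which 3 were clustered (PCDHGA11, PCDHGC3 and PCDHGC4), and a mean of at least 50 CPM by 3 members. PCDHA7 and PCDHB1 had no read at all. In all, 22 members had fewer than 10 reads over the 6 libraries and were not tested, which leaves 43 (6 alpha, 7 beta, 20 gamma and 10 non-clustered). At these depths 3 reads, the limit that a count of 0 allows, corresponded to 0.0933 to 0.237 CPM per library (counting error only). A count of 0 thus does not exclude levels up to these. Single reads gave lower values, such as 0.0367 CPM for PCDHGB5 in sh-control replicate 2.

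**Figure D2:**
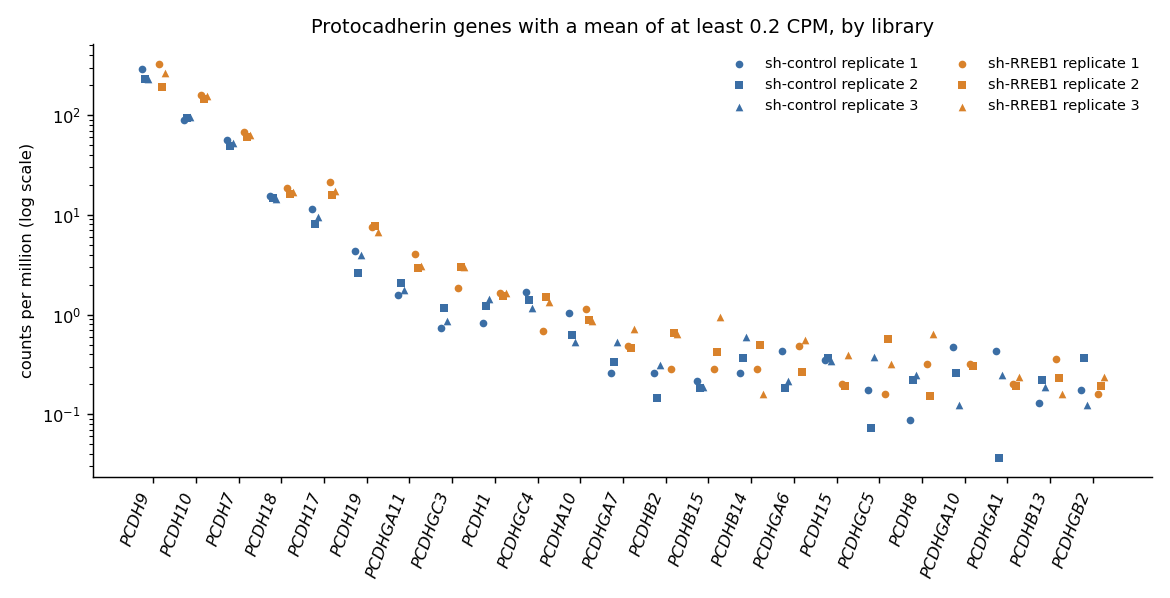
CPM (y axis, log scale) of the protocadherin genes with a mean of at least 0.2 CPM (x axis), with 1 point per library (values of 0 are not drawn). PCDH9 and PCDH10 lie near or above 100 CPM, and all clustered genes lie below 5 CPM.

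Per length the order of the leading members changed. PCDH10, a delta-2 protocadherin that acts in axon growth and recruits actin regulators, had the highest mean over all libraries, at 12.1 RPKM (CPM per kilobase of exon unique to the gene), followed by PCDH9 with 8.26, PCDH7 with 4.51, PCDH18 with 2.4 and PCDH17 with 1.66. PCDHGA11 had 0.708 RPKM and PCDHGC3 0.544 RPKM. On the length of all exons, PCDH10 lay above 83.4% of the 23617 genes tested and PCDH9 above 77.5%, whereas PCDHGC3 lay above 26.4% and PCDHA10 above 6.57%. Reads on exons that alpha or gamma genes share were counted to none, but the length of these exons is included in this ranking. It therefore places PCDHGC3 (0.326 CPM per kilobase of all exons) and PCDHA10 (0.0539) lower than their unique exons would. The RPKM values use exons of Gencode version 44, which may differ from the version 25 used for counting.

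No protocadherin gene was called between the groups at the thresholds of the study (a log2 fold change of more than 1 in either direction at an adjusted p below 0.01; edgeR quasi-likelihood test with Benjamini-Hochberg adjustment), where 3.38% of all genes tested were called. Of those genes 79.6% were higher in sh-RREB1, and 60.5% of the genes called after the correction for GC content and length described further on. At an adjusted p below 0.05 with no minimum fold change, 6 members rose in sh-RREB1 (PCDH10, PCDH17, PCDH19, PCDHGC3, PCDHGA11 and PCDHGB5) and 0 fell, against 10.7% of all genes tested higher and 8.7% lower, so the 6 of 43 are near that background. PCDH10 was the one member below an adjusted p of 0.01, a share that 3.09% of all genes reached in this direction. Without 1 library at a time, 1 to 5 members rose, and PCDH10 was among them each time. The lowest counts were 1 without sh-RREB1 replicate 3 (PCDH10) and 2 without sh-control replicate 2 (PCDH10 and PCDHGC3), and without sh-control replicate 1 PCDH17 and PCDH19 passed the thresholds of the study. At an unadjusted p below 0.05 there were 9 of 43 members in the fit on all libraries, against 34.2% of all genes. DESeq2 called 2 members higher at the thresholds of the study (PCDH19 and PCDHGC3; 5.88% of all genes) and 5 at an adjusted p below 0.05 (12.5% of all genes). The groups did not overlap in 12 members that were higher in sh-RREB1 and 2 that were lower, of 43, while 21.0% of all genes were higher without overlap and 19.9% lower. The median log2 fold change was 0.35 over the 43 members, 26 of them positive, and 0.01 over all genes tested.

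Fold changes over all genes rose with GC content (Spearman's rho 0.455 over genes, a description, as genes are no replicates), and the groups differ in their trends. With each library's own trend on base composition and transcript length removed, 8 members rose and 1 (PCDHGA4) fell at an adjusted p below 0.05, against 10.3% higher and 11.6% lower over all genes (edgeR with Benjamini-Hochberg adjustment). Of these, 5 were below an adjusted p of 0.01, namely PCDH10, PCDH7, PCDH17, PCDH18 and PCDH19, against 5.27% of all genes. These 5 also passed an adjusted p of 0.05 in each fit that left out 1 library with this correction, where 5 to 7 members rose in all. No member was called at the thresholds of the study after this correction with all 6 libraries, and 3.02% of all genes were. The median over the 43 members was then 0.16, and over all genes -0.03.

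**Figure D3:**
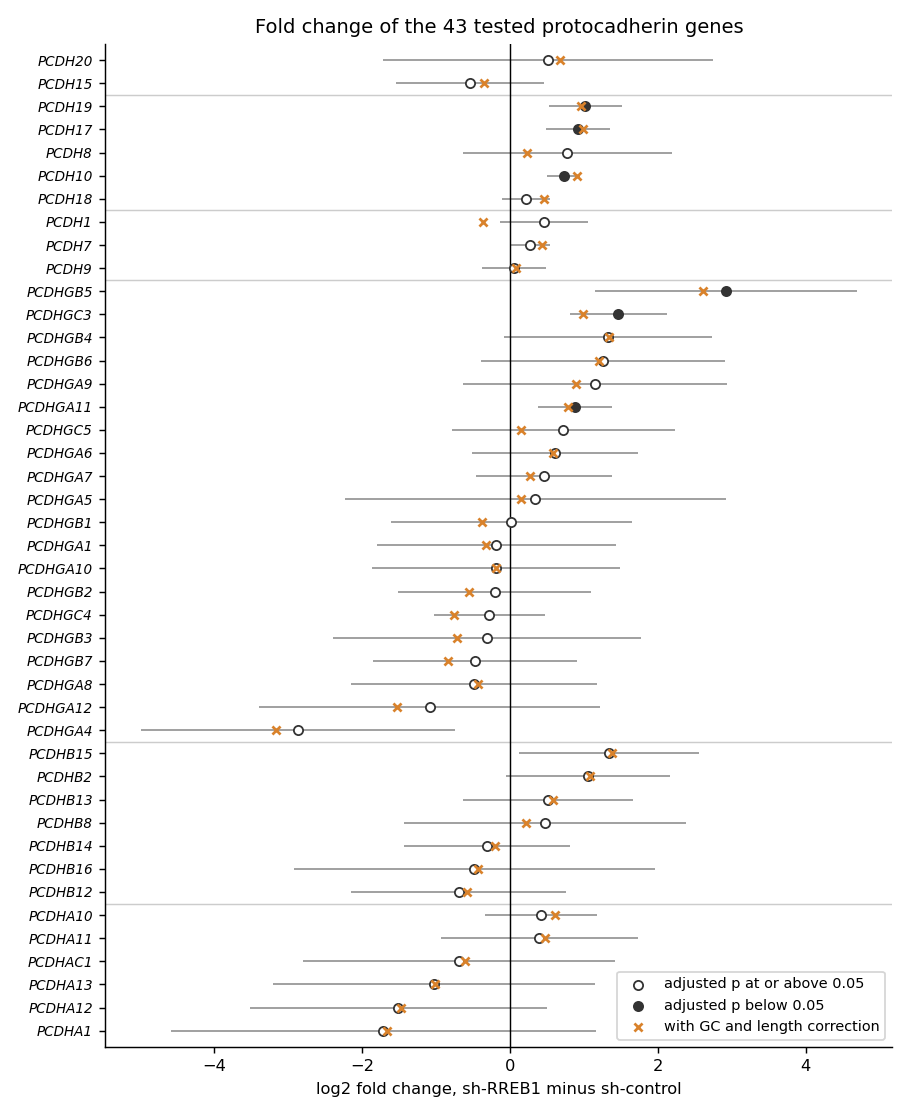
Log2 fold change of sh-RREB1 minus sh-control (x axis) of the 43 tested protocadherin genes (y axis, grouped from the bottom as alpha, beta, gamma, delta-1, delta-2 and other), with 95% intervals of the fit as lines, filled circles for an adjusted p below 0.05, and crosses for values with GC and length correction. The delta-2 genes all lie right of 0, and the intervals of most clustered genes span 0.

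Of the 5 delta-2 genes 3 rose (edgeR, adjusted p below 0.05), as did 3 of the 20 gamma genes tested and none of the other families, against 10.7% of all genes. Summed over PCDH8, PCDH10, PCDH17, PCDH18 and PCDH19, their level was 120, 119 and 124 CPM with sh-control against 209, 185 and 196 with sh-RREB1, so the groups did not overlap. PCDH10 made up most of this sum, with a mean of 92.5 CPM with sh-control and 153 CPM with sh-RREB1. Each of the 5 had a positive log2 fold change, and after the GC and length correction 4 passed an adjusted p of 0.05 (edgeR). Several delta-2 protocadherins are known to bind the WAVE complex of actin regulators.

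PCDH10 (chr4:133149294-133208606, plus strand) measured 88.7, 93.1 and 95.6 CPM with sh-control against 161, 145 and 154 CPM with sh-RREB1. Every sh-RREB1 library lay above every sh-control library, and the spread within each group was small beside the gap. The log2 fold change was 0.73 (SE 0.10; adjusted p = 0.00392, edgeR) and 0.91 after the correction for GC content and length (adjusted p = 7.6e-05). It stayed below an adjusted p of 0.05 without any 1 of the 6 libraries. The divergent noncoding transcript named for the same locus, PCDH10-DT, measured 8.15, 6.87 and 7.03 CPM with sh-control against 8.80, 6.84 and 6.96 CPM with sh-RREB1, with a log2 fold change of 0.04 (adjusted p = 0.905, edgeR).

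PCDH17 is a delta-2 gene of axon extension and synapse development, and PCDH19 acts together with N-cadherin. PCDH19 was named by rule, and PCDH17 after its values were seen. Their promoter windows are shown because both genes rose, with matches of CCCCACC or its complement GGTGGGG in capitals; RREB1 is known for binding C-rich elements. These letters occurred on either strand in 18.5% of all promoters and in 3 of 10 non-clustered members (PCDH12, PCDH17 and PCDH18), and a match is a description, not a binding site.
PCDH17 (chr13:57631494-57631793, plus strand): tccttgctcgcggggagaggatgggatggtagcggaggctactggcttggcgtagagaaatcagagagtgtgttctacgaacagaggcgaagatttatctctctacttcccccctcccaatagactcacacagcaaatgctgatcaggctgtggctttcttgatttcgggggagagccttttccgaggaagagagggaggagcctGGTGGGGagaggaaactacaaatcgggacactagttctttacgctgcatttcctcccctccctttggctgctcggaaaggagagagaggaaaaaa
PCDH19 (chrX:100410224-100410523, minus strand): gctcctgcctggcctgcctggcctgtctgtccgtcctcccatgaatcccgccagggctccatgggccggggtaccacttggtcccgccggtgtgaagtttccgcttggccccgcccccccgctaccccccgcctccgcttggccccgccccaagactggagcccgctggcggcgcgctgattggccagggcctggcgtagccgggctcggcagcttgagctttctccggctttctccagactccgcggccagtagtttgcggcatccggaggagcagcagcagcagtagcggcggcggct

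PCDH17 measured 11.4, 8.12 and 9.43 CPM with sh-control against 21.4, 16.0 and 17.5 CPM with sh-RREB1. The groups did not overlap, and the log2 fold change was 0.92 (SE 0.19; adjusted p = 0.0132, edgeR). The adjusted p was 0.0737 without sh-control replicate 2, and it was 0.0534 when sh-RREB1 replicate 3 was left out, while with the GC and length correction it stayed below 0.05 without any 1 library. Its promoter window had a GC content of 52.7%.

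PCDH19 measured 4.34, 2.61 and 3.92 CPM with sh-control against 7.51, 7.79 and 6.73 CPM with sh-RREB1, again without overlap. The log2 fold change was 1.02 (SE 0.22; adjusted p = 0.0151, edgeR). The adjusted p was 0.0609 without sh-control replicate 2, and 0.0529 when sh-RREB1 replicate 3 was left out. Its promoter window had a GC content of 71% and no match of the C-rich letters, which says only that they are not in this window.

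PCDH18, another delta-2 gene, measured 15.3, 14.8 and 14.4 CPM with sh-control against 18.6, 16.1 and 17.0 CPM with sh-RREB1. The groups did not overlap, but the difference was small, with a log2 fold change of 0.21 (adjusted p = 0.335, edgeR) and of 0.46 after the correction (adjusted p = 0.0093). PCDH8, which is known for its activity-dependent induction in neurons, had only 2 to 8 reads per library.

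The delta-1 genes, which carry a cytoplasmic motif that binds protein phosphatase 1, had no member that passed an adjusted p of 0.05 (edgeR). Their summed level was 348, 281 and 283 CPM with sh-control against 398, 252 and 328 CPM with sh-RREB1, with overlap. PCDH9 (chr13:66302834-67230445, minus strand), the member with the most reads, measured 291, 232 and 229 CPM with sh-control against 328, 191 and 263 CPM with sh-RREB1. The sh-RREB1 libraries held both the highest and the lowest value, and the log2 fold change was 0.06 (95% interval -0.37 to 0.49; adjusted p = 0.864, edgeR). PCDH7, also known as BH-protocadherin, measured 56.0, 48.6 and 53.0 CPM with sh-control against 68.3, 60.0 and 62.9 CPM with sh-RREB1. Here the groups did not overlap, and the log2 fold change of 0.28 did not pass (adjusted p = 0.13, edgeR) but the corrected value of 0.44 did (adjusted p = 0.00377), also without any 1 library.

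PCDH1, a delta-1 gene of epithelia, had a fold change that passed neither test and changed sign with the correction. It measured 0.824, 1.21 and 1.43 CPM with sh-control against 1.65, 1.53 and 1.66 CPM with sh-RREB1. Its exons have a GC content of 59.6%, and its log2 fold change was 0.46 before and -0.36 after the correction, with an adjusted p of 0.26 and 0.316 (edgeR). PCDH11X had 1, 1 and 5 reads with sh-control against 0 in each sh-RREB1 library and was not tested. Of the other non-clustered genes, PCDH15, a component of the tip links of hair cells, had 5 to 11 reads per library and PCDH20 0 to 8.

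PCDH12, a protocadherin of endothelial cells, had 2 reads in total on its own strand. On the opposite strand 77, 84 and 96 reads were counted with sh-control against 54, 47 and 25 with sh-RREB1, where the annotation places the overlapping gene RNF14. Over all members, opposite-strand reads made up 0.611% to 0.975% per library.

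**Figure D4:**
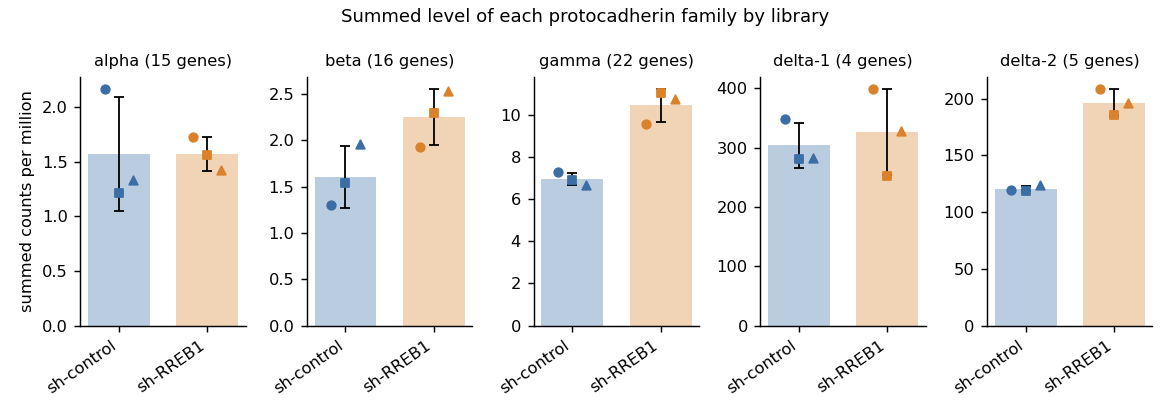
Summed CPM of each family (y axis, from 0) by group, with bars for the mean of 3 libraries, error bars for the SD and points for the libraries. The delta-2 and gamma sums do not overlap between the groups, and the alpha and delta-1 sums do.

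Among the clustered genes the gamma array carried most reads. Its summed level was 7.29, 6.90 and 6.69 CPM with sh-control against 9.56, 11 and 10.8 CPM with sh-RREB1, without overlap. Beta sums were 1.30, 1.54 and 1.96 CPM against 1.93, 2.29 and 2.53 CPM, and alpha sums 2.17, 1.21 and 1.34 CPM against 1.73, 1.57 and 1.42 CPM, both with overlap. Reads on the constant exons of the alpha and gamma arrays overlap many genes and were counted to none, so these sums rest on the variable exons. Of its 20 tested members 11 had a positive and 9 a negative log2 fold change, with a median of 0.18, and of -0.02 after the GC and length correction.

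PCDHGC3 belongs to the C-type isoforms, which are known to be expressed more broadly than the stochastically chosen ones, and is widely found outside neurons. It measured 0.737, 1.18 and 0.871 CPM with sh-control against 1.85, 2.98 and 3.01 CPM with sh-RREB1. The groups did not overlap, and the log2 fold change was 1.47 (SE 0.29; adjusted p = 0.0113, edgeR). It was 0.99 with the GC and length correction (adjusted p = 0.015), and without sh-RREB1 replicate 3 the adjusted p was 0.0518 before and 0.0622 after the correction. Without sh-control replicate 3 the corrected value was 0.0721.

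PCDHGC4, the next C-type gene of the array and one on which neuron survival depends, is given beside it. It measured 1.69, 1.40 and 1.15 CPM with sh-control against 0.683, 1.49 and 1.35 CPM with sh-RREB1, with overlap, and its log2 fold change was -0.28 (95% interval -1.03 to 0.47; adjusted p = 0.609, edgeR). Counted within each library, PCDHGC3 had 17, 32 and 28 reads and PCDHGC4 39, 38 and 37 reads in sh-control. In sh-RREB1 PCDHGC3 had 46, 78 and 38 reads and PCDHGC4 17, 39 and 17 reads. PCDHGC4 thus led in 3 of 3 sh-control libraries and PCDHGC3 in 3 of 3 sh-RREB1 libraries, and the PCDHGC3 to PCDHGC4 ratio was 0.436, 0.842 and 0.757 against 2.71, 2 and 2.24. The mean log2 ratio was -0.62 ± 0.51 (SD, n = 3) with sh-control and 1.20 ± 0.22 with sh-RREB1. The pair was chosen after its values were seen, so this is a description with no test. The GC contents over all exons, 55.7% and 55.3%, include the constant exons that both genes share. The GC content of the variable exons, which give the counts, was not compared.

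PCDHGC5, the last C-type gene, had 4, 2 and 12 reads with sh-control against 4, 15 and 4 with sh-RREB1. The alpha C-type genes were lower still, with 9, 1 and 4 against 3, 4 and 0 reads on PCDHAC1, and 0, 0 and 0 against 0, 2 and 1 reads on PCDHAC2, which was not tested. None of these passed a test.

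PCDHGA11, an A-type gamma gene late in the array, was the clustered gene with the most reads. It measured 1.56, 2.09 and 1.77 CPM with sh-control against 4.02, 2.90 and 3.09 CPM with sh-RREB1, without overlap. The log2 fold change was 0.88 (SE 0.22; adjusted p = 0.0268, edgeR), and of the 6 fits that left out 1 library it passed in 2 (without sh-control replicate 1 or sh-RREB1 replicate 2), where adjusted p ranged from 0.0392 to 0.0853. With the GC and length correction it did not pass without sh-control replicate 3, sh-RREB1 replicate 1 or sh-RREB1 replicate 3.

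The remaining gamma differences rest on few reads and were named after their values were seen. PCDHGB5 had 0, 1 and 1 reads with sh-control against 7, 5 and 2 with sh-RREB1 (adjusted p = 0.0318, edgeR), a pooled ratio of 9.06 with an exact counting interval of 2.08 to 82.1. Its adjusted p (edgeR) was 0.0556 to 0.0808 without any 1 of the 5 libraries whose omission left it enough reads for a test. PCDHGA4 had 3, 4 and 5 reads against 0, 1 and 0 (adjusted p = 0.063, and 0.0347 with the GC and length correction). The pooled ratio was 0.108, with a counting interval of 0.00252 to 0.729. The corrected adjusted p of PCDHGA4 was 0.106 without sh-RREB1 replicate 1 and 0.0888 when sh-RREB1 replicate 3 was left out.

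In the beta array PCDHB2, PCDHB14 and PCDHB15 had the highest levels per length. PCDHB15 had 5, 5 and 6 reads with sh-control against 7, 11 and 12 with sh-RREB1, a log2 fold change of 1.34 (adjusted p = 0.113, edgeR). PCDHB2 had 6, 4 and 10 against 7, 17 and 8 reads (1.06, adjusted p = 0.161), and PCDHB14 6, 10 and 19 against 7, 13 and 2 reads (-0.31, adjusted p = 0.717). None passed.

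In the alpha array PCDHA10 took most reads. It had 24, 17 and 17 reads with sh-control against 28, 23 and 11 with sh-RREB1, where the last library is the shallowest, and its log2 fold change was 0.43 (adjusted p = 0.415, edgeR). PCDHA11 had 2, 3 and 8 against 6, 4 and 3 reads, and PCDHA13 4, 1 and 6 against 0, 3 and 1 reads. Neither passed the test.

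The shares of each array were taken from reads on unique exons. Per kilobase of unique exon, PCDHA10 made up 21.6% ± 4.2 (SD, n = 3) of the alpha array in sh-control and 35.2% ± 4.92 in sh-RREB1, and by reads alone 46.4% and 60.8%, since its unique exon is long. In the beta array PCDHB14 had the highest mean in sh-control with 22.7% ± 4.92, and it had 12.8% ± 7.03 in sh-RREB1. There PCDHB15 had the highest mean with 25.1% ± 13.3. The alpha shares rest on 18 to 50 reads per library and the beta shares on 30 to 63, so counting error is large. In the gamma array PCDHGC4 made up 23.6% ± 3.8 and 13.1% ± 3.73 of the level, PCDHGA11 23.4% ± 3.6 and 29.8% ± 8.83, and PCDHGC3 13.4% ± 3.24 and 25.2% ± 4.14. Use was uneven in all 3 arrays, and the leading alpha genes lay late in the array.

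**Figure D5:**
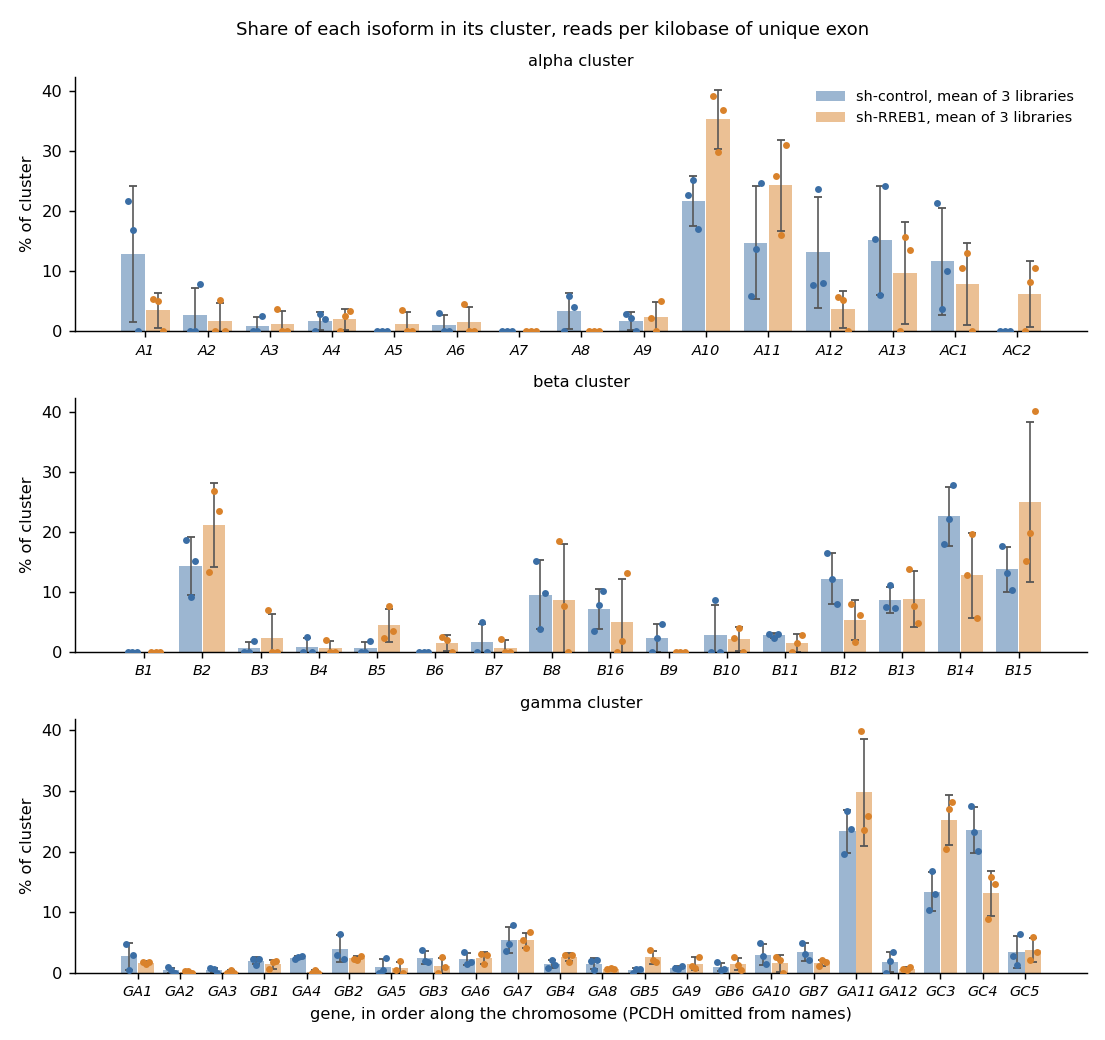
Share of each gene in its array (y axis, percent of reads per kilobase of unique exon) in order along the chromosome (x axis) for the 3 arrays, with bars for the mean of 3 libraries, error bars for the SD and points for the libraries. PCDHA10, PCDHB14 or PCDHB15, and PCDHGA11, PCDHGC3 and PCDHGC4 stand out.

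The genes that choose, cut and bind protocadherins were read from lists. Of 23 genes of promoter choice and chromatin (CTCF, cohesin, DNA methyltransferases and corepressors), 3 were higher and 8 lower at an adjusted p below 0.05 (edgeR; 10.7% and 8.7% of all genes), and 0 were called at the thresholds of the study. With the GC and length correction 1 was higher and 11 lower (10.3% and 11.6% of all genes). CTCF measured 138, 133 and 126 CPM with sh-control against 110, 110 and 101 CPM with sh-RREB1, without overlap, with a log2 fold change of -0.30 (adjusted p = 0.0657, and 0.0459 with the GC and length correction, edgeR). The cohesin subunit SMC3 fell from 688, 598 and 583 CPM to 350, 373 and 360 CPM (log2 fold change -0.79; adjusted p = 0.00354, edgeR), and the cohesin release factor WAPL from 403, 365 and 348 CPM to 267, 246 and 256 CPM (-0.54; adjusted p = 0.00976). The corepressor subunits SIN3A and KDM1A had log2 fold changes of -0.29 and -0.36 (adjusted p = 0.238 and 0.0529, edgeR). SMC3, WAPL, CTCF, SIN3A and KDM1A were named after their values were seen.

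None of the 7 cleavage genes (ADAM10 and the gamma-secretase subunits) and none of the 16 cytoplasmic partners passed an adjusted p of 0.05 (edgeR). With the GC and length correction 2 of the 16 partners were higher and 1 lower, against 10.3% and 11.6% of all genes. ABI2 (log2 fold change 0.41; adjusted p = 0.00756, edgeR) and BRK1 (0.33; adjusted p = 0.017), both subunits that act in the WAVE complex, were higher. The WAVE genes WASF1, WASF2, CYFIP1, CYFIP2, NCKAP1 and ABI1 did not pass an adjusted p of 0.05 with that correction. PTK2B, a tyrosine kinase, was lower (-0.83; adjusted p = 0.0108). Of the 19 classical cadherins and catenins 14 were tested, of which 1 was higher, 2 lower and 0 called at the thresholds of the study. Over all genes these shares were 10.7%, 8.7% and 3.38%. Of the large FAT, DCHS and CELSR cadherins 8 were tested and 4 were higher, with CELSR1 and CELSR3, receptors of planar cell polarity, called (10.7% of all genes were higher, and 3.38% were called in either direction). CELSR1 rose from 5.03, 6.9 and 7 CPM to 14.6, 16.4 and 11.8 CPM (log2 fold change 1.18; adjusted p = 0.00731, edgeR), and CELSR3 from 5.34, 7.13 and 6.75 CPM to 12.9, 16.2 and 12.9 CPM (1.12; adjusted p = 0.00654). With the GC and length correction these values were 0.06 and 0.05, and FAT3 alone was called (1.04; adjusted p = 5.18e-05). FAT3 measured 15.8, 14.5 and 14.4 CPM with sh-control against 29.1, 30.6 and 29.2 CPM with sh-RREB1, without overlap.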

How the data were processed

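The deposited values are read counts per gene and library, which the authors made with STAR (v2.4.2a) on hg38 with Gencode v25, without normalization. The counts that match each gene's strand were taken, because the labels name a stranded kit. Reads that overlap several genes are counted to none, and lines for reads on no gene were left out. All 24635 identifiers of the merged table held the same counts as the library tables. Samples were grouped by title (3 sh-control, 3 sh-RREB1).

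Differential expression was tested over all genes with at least 10 reads in total (23617), as in the study's methods, with edgeR 4.0.16 (quasi-likelihood test, TMM, condition as the only term, Benjamini-Hochberg adjustment) in R 4.3.3. DESeq2 1.42.0, other scalings and filters, both strands together, a replicate block, a GC and length correction (natural splines with 5 degrees of freedom on exons of Gencode v44, removed as an offset) and leaving out each library were the alternatives. A real effect that runs along with GC content would be removed with it. CPM and RPKM were computed from the counts with TMM-scaled library sizes. The test was checked on simulated counts, with changes only in better expressed genes and a capped spread between libraries. This check does not cover genes as low as the clustered members. The members, lists and tests were chosen with earlier results of these data known. The counts without single libraries at an adjusted p below 0.05 were added after the data were seen. Named genes were the C-type isoforms, in each of the alpha, beta, gamma and non-clustered groups the 3 members with the highest level per kilobase and the one with the largest change at 1 CPM or more, and list genes called; the other genes named were chosen after their values were seen.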

Additional observations from a re-analysis of the deposited data

How the results depend on the processing

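The number of genes called was 798 in all and 0 among protocadherins; it was 1656 and 2 with DESeq2, 1829 and 2 with a minimum of 1 read in total, 4575 and 6 at an adjusted p below 0.05 with no minimum fold change, and between 8 and 1120 and between 0 and 2 when 1 library was left out, with 8 genes in all without sh-RREB1 replicate 3, 25 without replicate 1 and 136 without replicate 2 of that group, and 9 without sh-control replicate 2 and 380 without replicate 3. Without 1 library and with the GC and length correction 457 to 715 genes were called (506 without sh-control replicate 2, 494 with sh-RREB1 replicate 1 left out and 457 with sh-RREB1 replicate 3 left out). Upper-quartile scaling and edgeR's filterByExpr each called 1 member (PCDHGC3). The lists of regulators and partners held 2 called genes, 4 with DESeq2 or a minimum of 1 read, 1 with the GC and length correction, 18 at an adjusted p below 0.05, and 0 to 4 without 1 library. With all settings tried, no protocadherin was called lower. PCDHA10 made up 46.4% of alpha reads against 21.6% per kilobase. Of the genes called, 79.6% were higher before and 60.5% after the GC and length correction.

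Whether the replicate numbers pair the libraries is not known. Deviations of same-numbered libraries correlated at 0.50, 0.43 and -0.27, and those of sh-control replicate 3 and sh-RREB1 replicate 2 at 0.56. A block term for that number called 1707 genes, 2 protocadherins (PCDH19 and PCDHGC3) and 5 list genes, and with the block and the GC and length correction the counts were 883, 0 and 1. The log2 fold change of RREB1 was negative and not called at the thresholds of the study in all settings, at -0.20 to -0.12 without 1 library and at -0.44 to -0.27 without 1 library and with the GC and length correction. It was -0.37 (adjusted p = 0.011, edgeR) with the block and that correction.

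The log2 fold change of PCDH9 was -0.041 with upper-quartile scaling. Without 1 library, it ranged from -0.14 to 0.24, that of PCDHAC1 from -1.19 to 0.30, of PCDHB14 from -0.81 to 0.043, of PCDHGC4 from -0.55 to 0.028 and of PCDHGC5 from 0.037 to 1.49. Without 1 library and with the GC and length correction, the ranges were 0.066 to 0.12, -1.07 to 0.40, -0.68 to 0.21 (0.012 without sh-RREB1 replicate 3), -1.01 to -0.44 and -0.36 to 0.79 (-0.28 without sh-control replicate 2). The cause of these changes was not tested. Over the alternatives for all named members, 375 values kept direction and side of the threshold, 14 passed it anew and 12 changed sign, those being of the genes just given. Depth limits the alpha and beta genes, with 228 and 275 reads in all.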
